A study of Danio rerio with 10 samples.

Results

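Cell proliferation genes were examined in FACsorted cells of the adult zebrafish spinal cord. The set holds 6 of the 31388 genes in the count table, chosen by Ensembl identifier, and the symbol of all 6 matched the gene table used for names. They are pcna (ENSDARG00000054155) and mcm5 (ENSDARG00000019507), which act in DNA replication, mki67 (ENSDARG00000091150), a marker of cycling cells, and top2a (ENSDARG00000024488), which untangles replicated chromosomes. The others are cdk1 (ENSDARG00000087554) and ccnb1 (ENSDARG00000051923), the kinase and the cyclin that drive entry into mitosis. OPCs were olig2:GFP-positive cells of the transgenic line Tg(olig2:eGFP), and OLs were mbp:GFP-positive cells of Tg(mbp:eGFP), with 5 libraries of each population, labelled OPC1 to OPC5 and OL1 to OL5. In both lines a promoter of the lineage drives eGFP, no other allele or treatment is given, and the age is given only as adult. By the study's account olig2:GFP is also carried by some radial glia of the ventral cord, so the sorted cells need not all be OPCs, and the cords of several fish, at most 5 per dissection, were processed together, so a library may pool fish. OPCs passed a strainer of 20 μm and OLs one of 35 μm. Line, strainer and population cannot be told apart.

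Cells that divide copy their DNA in S phase and separate the copies in mitosis. Transcripts of the machinery for each step accumulate in cycling cells, whereas some replication proteins also serve DNA repair and are made in cells that do not divide. In vertebrates OPCs are known as the dividing cells of the oligodendroglial lineage, and myelinating OLs are regarded as having left the cell cycle. The study describes the OPCs that it sorted from adult cord as dormant. The comparison asks how far transcripts of these genes differ between freshly sorted OPCs and OLs.

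The total count of a library was between 11072526 and 11960408 in OPCs and between 13937725 and 20225093 in OLs, so the OL libraries were the deeper ones by total count. They did not hold more detected features, with 16119 to 17904 in OLs and 17303 to 18692 in OPCs. Counts were divided by a size factor per library and are called normalized counts. The size factors overlapped, from 0.889 to 1.07 in OPCs and from 0.895 to 1.40 in OLs. Lineage markers were set beside the labelled identities. The reporters used for the sort are named for olig2 and mbp, so olig2 and mbpa are no independent check. The transcription factor olig2 had 13681 to 24346 normalized counts in OPCs and 2426 to 5710 in OLs, and the structural myelin gene mbpa had 439486 to 588058 in OPCs and 869905 to 1043820 in OLs, so transcripts of mature OLs were abundant in the OPC libraries as well. Of markers not used for the sort, olig1 averaged 1243 ± 363 normalized counts in OPCs, against 24.0 ± 22.8 in OLs (SD, n = 5 each, adjusted p = 2.2e-05, edgeR). The myelin gene cldnk averaged 65348 ± 9346 in OPCs, against 101195 ± 12447 in OLs (SD, n = 5 each, adjusted p = 0.00948, edgeR). Among the 5 mature OL markers found, 4 were called lower in OPCs, and the myelin gene mag was not called. Its mean was slightly higher for OPCs, 5370 normalized counts beside 4529 for OLs (log2 fold change 0.25, adjusted p = 0.704, edgeR). The lineage factor sox10 was not called (adjusted p = 0.793, edgeR). These are bulk samples of sorted cells, so fewer cells of a kind and less RNA per cell cannot be told apart.

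Transcripts of cdk1, mcm5 and mki67 were detected mainly in OPCs, top2a had the same direction without passing the test, and pcna and ccnb1 did not differ beyond the spread between libraries. The usual filter on low counts, which asks for reads in 5 libraries, passed 2 of the 6 genes, pcna and ccnb1. Of these 2, edgeR's quasi-likelihood test called 0 at an adjusted p under 0.05, and 0 had an unadjusted p under 0.05, while 11.8% of the 12292 features tested were called (9.01% higher and 2.82% lower in OPCs). DESeq2 and limma voom called 0 of the same 2. The other 4 genes did not pass because fewer than 5 libraries held enough reads of them. They were therefore tested one by one with an exact permutation test over the libraries and, in a fit without the filter, together with the 25313 features that had any count. In that fit 3 of the 6 genes, cdk1, mcm5 and mki67, were higher in OPCs and 0 were lower, beside 7.79% of all features higher and 1.45% lower (9.23% called). The other settings described here that tested all 6 genes let cdk1, mcm5 and mki67 pass through the OPC libraries where they are high, so their calls are given as values and add no support. A filter chosen after seeing the data, at least 10 counts in at least 3 libraries, called these 3 genes, beside 12.2% of 14056 features higher and 3.09% lower in OPCs (15.3% called). Leaving out OPC5, the OPC library where they are lowest, also called them, beside 10.4% of features higher and 3.72% lower (14.1% called).

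**Figure D1:**
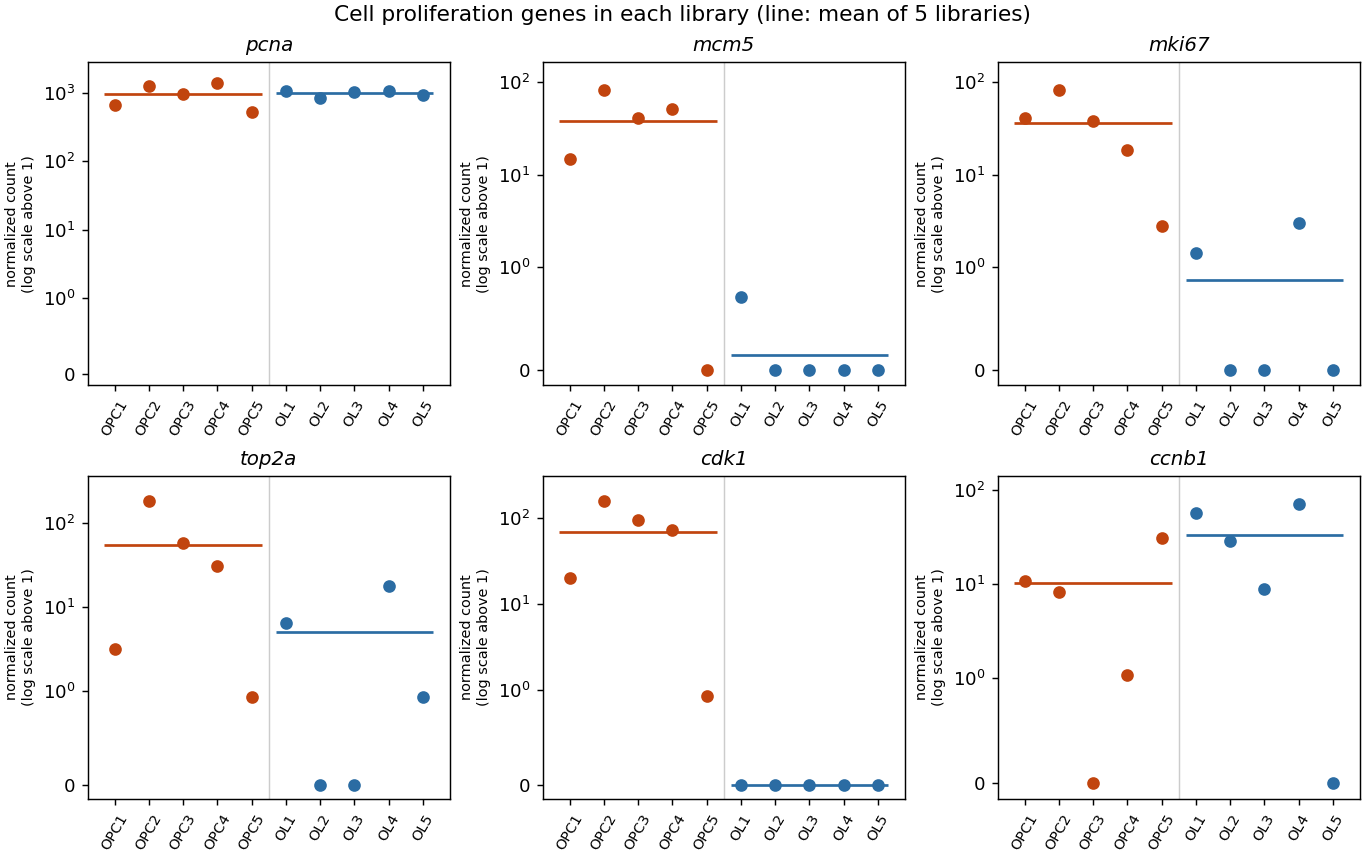
Normalized counts of the 6 genes (vertical axes, linear below 1 and logarithmic above) in the 5 OPC libraries on the left of each panel and the 5 OL libraries on the right, with a line at the mean of each population. For mcm5, mki67, top2a and cdk1, OPC5 sits at 0 to 2.80 normalized counts, among the OL libraries for all but cdk1, while pcna lies between 515 and 1394 in every library.

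The sliding clamp pcna, which holds DNA polymerases on the template and also serves DNA repair, lies on GRCz10 chromosome 10, 40900618 to 40905471, minus strand, in 13 exon blocks. It had 650, 1268, 953, 1394 and 515 normalized counts in OPC1 to OPC5 and 1055, 834, 1011, 1069 and 936 in OL1 to OL5. OPC2 and OPC4 were above every OL library and OPC1 and OPC5 below every one, so the populations overlapped fully. The mean was 956 ± 380 in OPCs, against 981 ± 97.0 in OLs (SD, n = 5 each), a log2 fold change of -0.04 (SE 0.25, OPC over OL, adjusted p = 0.952, edgeR). The 95% interval of that log2 fold change ran from -0.58 to 0.50, so differences beyond these bounds lie outside it. The spread was wider among OPC libraries than among OL libraries, from 515 to 1394 against 834 to 1069.

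The kinase cdk1 (chromosome 17, 20903855 to 20909625, plus strand, 8 exon blocks) showed the clearest separation. It had 20.2, 157, 94.5, 72.3 and 0.934 normalized counts in OPC1 to OPC5, from 19, 153, 84, 66 and 1 reads, and 0 reads in each of the 5 OL libraries. Every OPC library was above every OL library, but OPC5 only by a single read. It was the only one of the 6 genes with every OPC library above every OL library, a property of 5.93% of features with any count and of 8.93% of those that passed the filter. With each OL library set to 3 counts, the limit that 0 reads allow, the mean of cdk1 was at least 24.9-fold higher in OPCs. This bound covers counting in OLs only. The OPC mean was 69.0 normalized counts, and 47.0 without OPC2, while OPC5 lay below the mean OL floor of 2.77. The exact permutation test over libraries, two-sided and unadjusted, gave p = 0.00794, the smallest that 5 libraries against 5 allow. That minimum needs every OPC library above every OL library, so it rests on the single read in OPC5. In the fit without the filter the adjusted p of cdk1 was 0.000703 (edgeR). In the 6 fits with a library left out that tested cdk1, it ran from 0.0011 without OPC5 to 0.012 (edgeR).

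The helicase subunit mcm5 (chromosome 3, 25868606 to 25880569, plus strand, 16 exon blocks) belongs to the MCM ring that unwinds DNA at the fork. In OPC1 to OPC5 it had 14.9, 82.1, 40.5, 51.5 and 0 normalized counts, and in the OL libraries there was a single read, in OL1. OPC5 thus matched the OL libraries, while the other 4 OPC libraries were all above them. Without OL1 the OL libraries held 0 reads of mcm5. From 177 reads in OPCs and 1 in OLs, the ratio per unit of library size was 205, with a counting interval from 36.3 to 8142 (95%, exact binomial), which covers counting error only. The exact permutation test of mcm5, two-sided and unadjusted, gave p = 0.0476. Without the filter its adjusted p was 0.00169 (edgeR). In the 6 fits with a library left out that tested mcm5, it ran from 0.000235 without OPC5 to 0.0224 (edgeR).

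The gene mki67 (chromosome 12, 10328774 to 10343439, minus strand, 16 exon blocks) encodes a protein that coats mitotic chromosomes and is widely used to mark cycling cells. It had 40.5, 82.1, 38.3, 18.6 and 2.80 normalized counts in OPC1 to OPC5 and 1.43, 0, 0, 2.96 and 0 in OL1 to OL5. OPC5 fell just below OL4, and the other 4 OPC libraries were above all OL libraries. The mean of mki67 was 36.4 ± 29.8 in OPCs, against 0.879 ± 1.32 in OLs (SD, n = 5 each), with 3 of the 5 OL reads in OL4. From 172 reads in OPCs and 5 in OLs, the ratio per unit of library size was 39.8, with a counting interval from 16.7 to 124, and without OL4 it was 81.4, from 22.2 to 678. The exact permutation test of mki67, two-sided and unadjusted, gave p = 0.0159. Its adjusted p was 0.00501 without the filter (edgeR). In the 6 fits with a library left out that tested mki67, it ran from 0.00187 without OPC5 to 0.017 (edgeR).

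The topoisomerase top2a (chromosome 12, 10668469 to 10701717, plus strand) lies 325030 bases from mki67 on the same chromosome. Its values were uneven in both populations, with 3.19, 180, 57.4, 30.7 and 0.934 normalized counts in OPC1 to OPC5 and 6.43, 0, 0, 17.8 and 0.939 in OL1 to OL5. OPC2, OPC3 and OPC4 were above every OL library, whereas OPC1 and OPC5 lay among them. The mean was 54.3 ± 73.7 in OPCs, against 5.03 ± 7.62 in OLs (SD, n = 5 each), and the ratio of these means, 10.8, was 4.58 without OPC2 and 29.5 without OL4. The exact permutation test, two-sided and unadjusted, gave p = 0.119. The adjusted p of top2a was 0.0946 without the filter (edgeR). In the 6 fits with a library left out that tested top2a, it ran from 0.0706 without OPC5 to 0.223 (edgeR). The difference passed in none of these fits. Its permutation p was under 0.05 only without OPC5 (exact test, p = 0.0476).

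The mitotic cyclin ccnb1 (chromosome 5, 54088191 to 54091953, minus strand, 25 exon blocks) binds cdk1, and its product is destroyed at the end of mitosis. It had 10.6, 8.21, 0, 1.1 and 30.8 normalized counts in OPC1 to OPC5 and 57.1, 28.2, 8.94, 70.2 and 0 in OL1 to OL5. The populations overlapped, OPC5 was the highest of the OPC libraries, and 0 OPC libraries were above the highest OL library. The mean of ccnb1 was 10.2 ± 12.4 in OPCs, against 32.9 ± 30.2 in OLs (SD, n = 5 each), a log2 fold change of -1.67 (SE 1.14, 95% interval -4.15 to 0.80, adjusted p = 0.43, edgeR). OLs held 192 reads of ccnb1 and 0 of cdk1. Each of the 6 genes overlaps 0 other features. The treatment of reads with several map positions is not given in the sources used here.

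**Figure D2:**
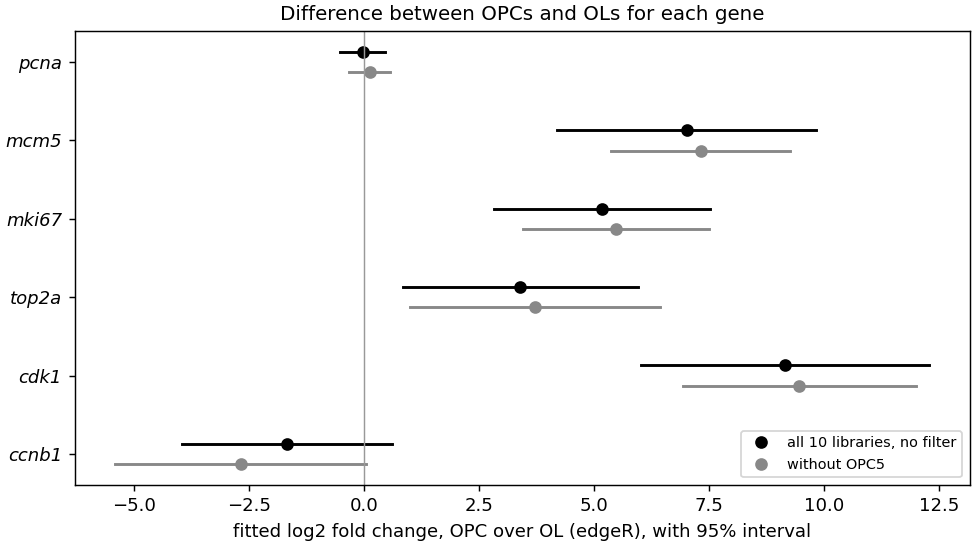
Fitted log2 fold change, OPC over OL (horizontal axis), of each gene with its 95% interval from edgeR, not adjusted for the number of features, for all 10 libraries without a filter (black) and without OPC5 (grey). The intervals of pcna and ccnb1 include 0 in both fits, and that of ccnb1 reaches 0.05 without OPC5. The position of cdk1 depends on edgeR's prior count because OLs had 0 reads, and that of mcm5 rests on a single OL read.

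Per length, as TPM, the share of a library's transcripts scaled by exon length, pcna was far above the other genes, with 112 ± 38.2 TPM in OPCs and 92.4 ± 7.20 TPM in OLs (SD, n = 5 each). In OPCs the order of levels below it was cdk1 with a mean of 8.46 TPM, mcm5 with 2.41 TPM, top2a with 1.73 TPM, ccnb1 with 0.823 TPM and mki67 with 0.757 TPM. The SDs of these 5 genes over the OPC libraries were between 0.640 and 7.88 TPM, and the order was not tested. In OLs ccnb1 was next after pcna, with 1.86 ± 1.69 TPM, and the other 4 were at or below a mean of 0.124 TPM.

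The levels were uneven among the OPC libraries. Summed over mki67, mcm5, top2a and cdk1, OPC1 to OPC5 had 78.8, 501, 231, 173 and 4.67 normalized counts, and OL1 to OL5 had 8.57, 0, 0, 20.8 and 0.939. OPC2 alone held 49.2% of the summed normalized counts of all 10 libraries, and OPC5 held 0.459%, from 5 reads. OPC2 was the highest OPC library for all 4 genes and OPC5 the lowest for all 4 and for pcna. The total count of OPC5, 11913281, was among the higher ones of the OPC libraries, but it held the fewest detected features of them, 17303 against 17822 to 18692. The part of this in the low levels was not tested. Without OPC5, cdk1, mcm5 and mki67 were called and top2a, pcna and ccnb1 were not. When OPC1, OPC2, OPC3 or OPC4 was left out, cdk1, mcm5 and mki67 did not pass the filter and have no value from that fit. Their exact permutation p, unadjusted and needing no filter, was at most 0.0476 without any single library. For mcm5 it was 0.0476 with all 10 libraries and stayed there without any library but OPC5, so it hardly responds to leaving a library out.

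Other genes of the same processes were taken from lists of cell-cycle genes written with earlier results of these data known. Of 46 genes of DNA replication and G1/S found in the table, 33 passed the filter and 2 were called, both higher in OPCs (edgeR), which is 6.06% beside the 9.01% of all tested features that were higher in OPCs. The median log2 fold change of these 33 was 0.14, and that of all tested features was 0.06. The called genes were mcm2, another subunit of the MCM ring, and ccne1, the cyclin of the G1/S step. The helicase subunit mcm2 had 22.4, 143, 147, 268 and 152 normalized counts in OPC1 to OPC5 and a single read in the OL libraries (adjusted p = 3.5e-05, edgeR). It thus passed the filter through the OPC libraries alone. Cyclin ccne1 averaged 51.1 ± 36.7 normalized counts in OPCs, against 8.40 ± 3.02 in OLs (SD, n = 5 each, log2 fold change 2.58, SE 0.56, adjusted p = 0.00757, edgeR). The most abundant genes of the list, rpa1, rfc5, lig1, rfc2 and fen1, did not pass the test (adjusted p = 0.726 to 0.956, edgeR). The single-strand binding subunit rpa1 averaged 857 ± 254 normalized counts in OPCs, against 936 ± 51.4 in OLs (SD, n = 5 each, adjusted p = 0.792, edgeR). The DNA ligase lig1 averaged 351 ± 84.6 in OPCs, against 387 ± 41.5 in OLs (SD, n = 5 each, adjusted p = 0.726, edgeR). The fit without the filter called 9 of the 46, all higher in OPCs (19.6%, beside 7.79% of all features), with tyms, ccne2, ccna2, orc6 and mcm10 among them.

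The partners of mcm5 in the MCM ring, singled out after their values were seen except for mcm2, differed in their levels in OPC5. OPC5, with 0 reads of mcm5, had 152 normalized counts of mcm2. Subunit mcm3 averaged 179 ± 70.2 normalized counts in OPCs, against 171 ± 31.7 in OLs (SD, n = 5 each, adjusted p = 0.926, edgeR). Subunit mcm4 was closer to mcm5, with 10.6, 27.7, 38.3, 59.2 and 0.934 normalized counts in OPC1 to OPC5 and at most 8.89 in an OL library, but did not pass the test without the filter (adjusted p = 0.0608, edgeR). For mcm7 the highest library was OPC5, with 329 normalized counts, and the populations overlapped (adjusted p = 0.805, edgeR). The name mcm6 belongs to more than 1 identifier in the gene table and was left out.

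**Figure D3:**
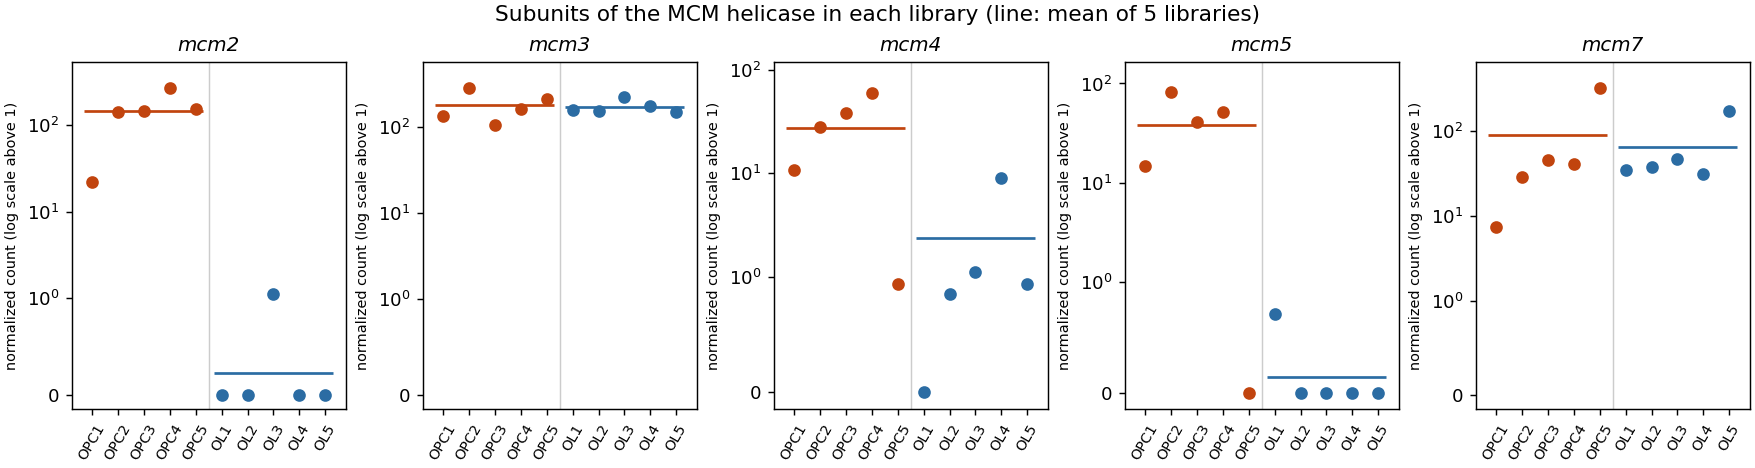
Normalized counts of mcm2, mcm3, mcm4, mcm5 and mcm7 (vertical axes, linear below 1 and logarithmic above) in the 5 OPC libraries on the left of each panel and the 5 OL libraries on the right, with a line at each population's mean. In OPC5, mcm5 is at 0 and mcm4 at 0.934, while mcm2 is at 152 and mcm7 at 329.

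Genes of G2 and mitosis were sparse, and 14 of 46 had at most 3 reads in every OL library, against 2 of 46 in every OPC library. Of the 14, 7 averaged at least 10 normalized counts in OPCs. The share of all features that are this low was computed for neither population, so these counts are no result about the list. Detected features of any kind numbered 16119 to 17904 in OL libraries and 17303 to 18692 in OPC libraries. Of the 46 found in the table, 17 passed the filter and 2 were called, both higher in OPCs (edgeR), which is 11.8% beside 9.01% of all tested features. Their median log2 fold change was 0.94, beside 0.06 over all tested features. The cdk1-binding subunit cks1b had 20.6 to 108 normalized counts in OPCs and 0 to 11.9 in OLs (log2 fold change 3.67, SE 0.89, adjusted p = 0.0155, edgeR). The cytokinesis regulator ect2 averaged 123 ± 83.3 normalized counts in OPCs, against 8.32 ± 5.81 in OLs (SD, n = 5 each, log2 fold change 3.90, SE 0.79, adjusted p = 0.00466, edgeR). Without the filter 10 of the 46 were called, all higher in OPCs (21.7%, beside 7.79% of all features), among them the mitotic kinase plk1, the kinetochore gene cenpf, the condensin subunit ncapg and the spindle genes kif2c, aspm and dlgap5. That base again includes the features that failed the filter. With at least 10 counts in at least 3 libraries, 7 of 32 were called higher in OPCs (21.9%, beside 12.2% of all features). Without OPC5, 6 of 19 genes that passed were called (31.6%, beside 10.4% of all features higher in OPCs). Leaving out OPC5, where many of these genes were lowest, favours such calls. Genes can also pass these altered filters through the OPC libraries where they are high, so these shares add no support. The usual filter, too, can be passed through the 5 OPC libraries alone, so the share given with it has the same limit. The most abundant genes of the list, hmgb2b, smc4, wee1, cdc25b and bub3, did not pass (adjusted p = 0.0864 to 0.827, edgeR). The chromatin protein hmgb2b averaged 3095 ± 557 normalized counts in OPCs, against 2935 ± 256 in OLs (SD, n = 5 each, adjusted p = 0.827, edgeR). The condensin subunit smc4 averaged 757 ± 477 in OPCs, against 1882 ± 961 in OLs (SD, n = 5 each, adjusted p = 0.102, edgeR).

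The uneven levels among OPC libraries extended to this list. Of the 34 genes of G2 and mitosis whose OPC mean reached 10 normalized counts, OPC2 was the highest OPC library for 23 (67.6%), and OPC5 was the lowest or tied for lowest for 25 (73.5%). Over all 13679 features with such a mean these shares were 21.8% and 31.5%, ties at 0 included. Of the 43 such genes of DNA replication and G1/S, OPC4 was the highest for 19 (44.2%, beside 21.8% of all features), and OPC5 was the lowest or tied for lowest for 21 (48.8%, beside 31.5%). The other B-type cyclins, singled out after their values were seen, had higher means in OPCs. Cyclin ccnb3 had 1.06, 46.2, 6.75, 13.1 and 0 normalized counts in OPC1 to OPC5 and 0 reads in the OL libraries, and ccnb2 averaged 20.4 ± 14.6 in OPCs, against 8.48 ± 5.45 in OLs (SD, n = 5 each, adjusted p = 0.45, edgeR).

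**Figure D4:**
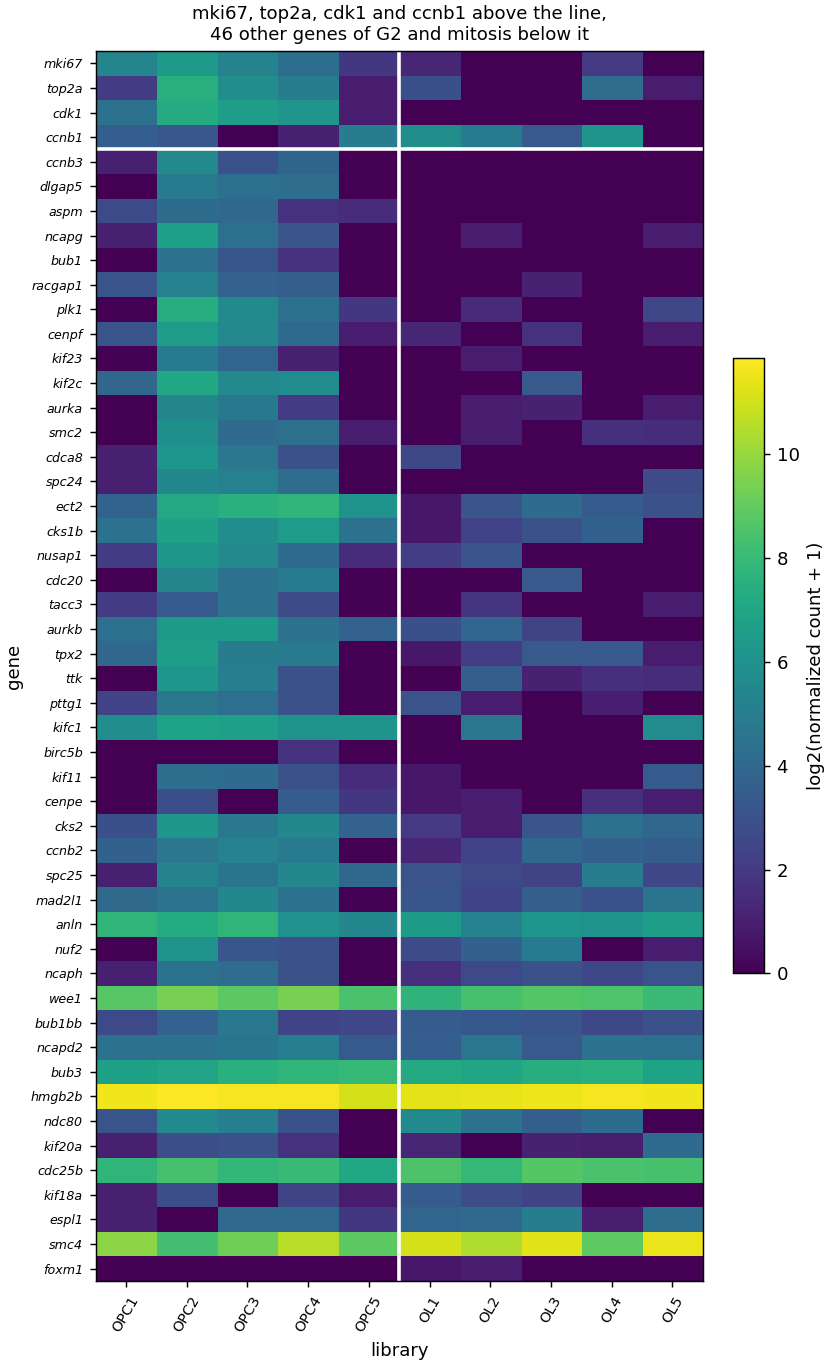
Expression as log2(normalized count + 1) (colour) of mki67, top2a, cdk1 and ccnb1 above the horizontal line and of 46 other genes of G2 and mitosis below it, ordered by fitted log2 fold change, in the OPC libraries on the left and the OL libraries on the right. OPC2 is the brightest OPC column for 23 of the 34 genes whose OPC mean reached 10 normalized counts, and OPC5 is the darkest or tied for darkest for 25.

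Of 8 genes of G1 cyclins, kinases and their factors, 4 passed the filter and 1 was called, higher in OPCs, beside 9.01% of all tested features. Cyclin ccnd1, which drives the passage through G1, had 24.5 to 74.5 normalized counts in OPCs and 0 to 2.82 in OLs (log2 fold change 5.13, SE 0.71, adjusted p = 0.000281, edgeR). OPC5 held 43.0 normalized counts of ccnd1. With 6 reads over the OL libraries, ccnd1 passed the filter through the OPC libraries alone. Its kinase partner cdk6 did not pass the filter, had 7.45 to 86.2 normalized counts in OPCs and 0 to 1.71 in OLs, and was called without the filter (adjusted p = 0.00304, edgeR). Named after their values were seen, cdk4 and ccnd3 of the same list did not go this way. The kinase cdk4 had 4 reads in OPCs and 5 in OLs, and cyclin ccnd3 had 4 in OPCs and 30 in OLs. Neither was called without the filter (adjusted p = 0.971 and 0.292, edgeR). The most abundant genes of the list, e2f4, e2f3 and mycn, were not called (adjusted p = 0.502, 0.521 and 0.282, edgeR). Of these, mycn averaged 20.2 ± 9.45 normalized counts in OPCs, against 37.9 ± 12.4 in OLs (SD, n = 5 each).

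Of 14 inhibitors of cyclin-dependent kinases and related antiproliferative genes, 10 passed the filter and 1 was called, higher in OPCs, which is near the 9.01% of all tested features. This was btg2, an antiproliferative gene, with 4476 to 7744 normalized counts in OPCs and 1386 to 3399 in OLs (log2 fold change 1.29, SE 0.23, adjusted p = 0.00207, edgeR). The related btg1 averaged 3339 ± 1639 normalized counts in OPCs, against 1894 ± 540 in OLs (SD, n = 5 each, adjusted p = 0.1, edgeR). The median log2 fold change of these 10 genes was 0.10, beside 0.06 over all tested features.

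Markers of other cells that the olig2:GFP gate could hold were set beside these genes. All 3 radial glia markers found in the table were higher on average in OPCs, with summed levels of 464 to 1639 normalized counts in OPCs and 249 to 599 in OLs, and of these gfap and s100b were detected in every library. The progenitor factor sox2 had 89.4, 136, 94.5, 87.7 and 25.2 normalized counts in OPC1 to OPC5 and at most 2.23 in an OL library (adjusted p = 0.000115, edgeR), with 0 reads in 4 of the 5 OL libraries. It too passed the filter through the OPC libraries alone. The calcium-binding protein s100b had 335 to 1444 in OPCs and 235 to 555 in OLs, and was called without the filter but not with it (adjusted p = 0.0396 and 0.0727, edgeR). OPC2 was the highest and OPC5 the lowest for sox2, as for mki67, mcm5, top2a and cdk1. The intermediate filament gfap was highest in OPC2 as well, with 205 normalized counts, but had 104 in OPC5 and 24.5 in OPC1 (adjusted p = 0.11, edgeR). For s100b the highest OPC library was OPC4, with 1444 normalized counts beside 967 in OPC2, and the lowest was OPC5, with 335. Over the 13679 features ranked by OPC library, OPC2 was the highest for 21.8% and OPC5 the lowest or tied for lowest for 31.5%. The share with both was not computed. Whether radial glia take part in the levels of the proliferation genes was not tested.

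The 4 markers of microglia and leukocytes found had a summed level of 2019 to 6961 normalized counts in OPCs and 3224 to 14733 in OLs, nearly all of it apoeb, which other glia also express. Its adjusted p was 0.0515 with the filter and 0.0207 without it, lower in OPCs (edgeR). The leukocyte marker ptprc had 4.26, 23.6, 29.3, 44.9 and 44.9 normalized counts in OPC1 to OPC5 and 7.91 to 19.0 in OLs (adjusted p = 0.328, edgeR), and OPC5 was among its highest libraries. Of the others, csf1ra had at most 2.25 normalized counts in any library, and coro1a was at 0 in every OPC library. Neuronal transcripts were present in every library, with 3860 to 6500 normalized counts of elavl3 in OPCs and 4641 to 6663 in OLs (adjusted p = 0.579, edgeR), and 1259 to 1634 of elavl4 in OPCs and 1308 to 1916 in OLs (adjusted p = 0.55, edgeR). The part of leukocytes and neurons in the levels of the proliferation genes was not tested. The 2 markers of endothelium had at most 2.14 normalized counts in sum in any library, and the 2 of erythrocytes at most 19.7.

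**Figure D5:**
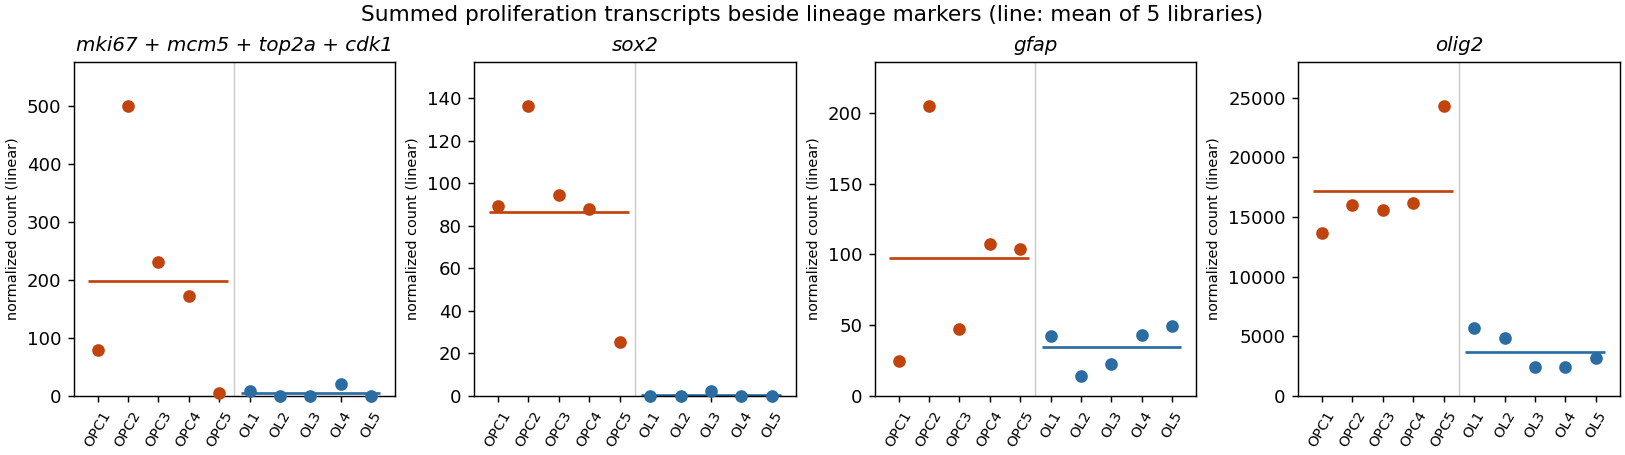
Summed normalized counts of mki67, mcm5, top2a and cdk1 (first panel) beside those of sox2, gfap and olig2 (linear axes from 0) in the 5 OPC libraries on the left and the 5 OL libraries on the right of each panel, with a line at each population's mean. OPC5 has 4.67 in the first panel and the lowest sox2 of the OPC libraries, 25.2, together with the highest olig2, 24346.

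The features most like these genes were sought by the mean absolute difference of z-scores of log2(normalized count + 1) over the 10 libraries. For the mean profile of pcna and ccnb1, the 2 genes that passed the filter, OSER1 was nearest of 12251 features, with a difference of 0.32. For the mean profile of mki67, mcm5, top2a and cdk1, a choice made after their values were seen, PRC1 (ENSDARG00000005993) was nearest of 13144 features, with a difference of 0.15. PRC1 bundles microtubules of the central spindle at cell division, and had 9.58, 140, 57.4, 34.0 and 1.87 normalized counts in OPC1 to OPC5 and at most 2.14 in an OL library. The next was SLC32A1, the vesicular transporter of GABA and glycine, with a difference of 0.16. It had 11.7, 75.9, 36.0, 21.9 and 1.87 normalized counts in OPC1 to OPC5 and at most 3.95 in an OL library.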

How the data were processed

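The authors reverse transcribed RNA of sorted cells, amplified full-length cDNA by PCR, mapped the reads to GRCz10 with GSNAP and counted them per Ensembl gene with featureCounts 1.5.2. They deposited raw counts of 31388 features in 10 libraries, without normalization. Strand use is not given in the sources used here, and PCR copies are not independent molecules, so floors (3 counts) and counting intervals (95%) cover counting error only. By the study's methods the 5 libraries of a population are biological replicates. Columns without a sample numbered 0.

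Features were kept by edgeR's filterByExpr, libraries were scaled by size factors from DESeq2 (median of ratios), and OPCs were compared with OLs by the quasi-likelihood test of edgeR, adjusted by Benjamini-Hochberg over all features tested (edgeR 4.0.16, DESeq2 1.42.0, limma 3.58.1, R 4.3.3, Python 3.11.15). The SE of a log2 fold change is its size divided by the square root of F. Genes outside the filter were tested by an exact permutation test on log2(normalized count + 1). TPM was computed from the counts and the exon lengths of the table. The fits with the filter were tested on simulated data of the features that passed it. The fit without the filter and the permutation test were not simulated.

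Of the 31388 identifiers, 25925 had a symbol in the gene table, and 135 of 170 list symbols matched a single identifier. The 6 genes and the lists were chosen with earlier results of these data known. Named besides the 6 genes were called list genes that averaged 10 or more normalized counts, and some of the most abundant list genes. Markers and the nearest profiles were also named. Others are marked as chosen after their values were seen or passed only without the filter. Alternatives were other normalizations, filters and tests, a replicate block, a pseudocount of 10, and leaving out each library.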

Additional observations from a re-analysis of the deposited data

Results flagged for a closer look

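Groups of 5 libraries were screened for the 6 proliferation genes and other named genes. Of 124 groups, 18 had a library whose gap to its nearest neighbour exceeded 0.71 of the range of the group. For normally distributed values this cut-off flags about 1 in 20 groups, or 6.2. Counts with many zeros are not so distributed, so 6.2 is not the number to expect here. Among the proliferation genes only mcm5 in OL1 was such a case, with 0.714 normalized counts from 1 read where the other OL libraries had 0. Single reads or 2 reads among zeros also account, by their counts, for mcm2 in OL3 (1.12), sox2 in OL3 (2.23), csf1ra in OL3 (1.12), cdh5 in OPC1 (1.06) and alas2 in OPC5 (0.934), and 3 reads for PRC1 in OL1 (2.14). The remaining low one was mcm4 in OL4, at 8.89 from 9 reads where the other OL libraries had at most 1.12.

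In OPC5, the library with 5 reads over mki67, mcm5, top2a and cdk1, olig2 stood at 24346 normalized counts where the other OPC libraries had 13681 to 16225, and sox10 at 4623 where the others had 2322 to 2854. The myelin gene mag, expressed by mature OLs, stood at 11413 in OPC5 where the others had 3238 to 4484, and mcm7 at 329 where they had 7.45 to 46.1. In OPC2, the library with the highest summed level of those 4 genes, ccne1 stood at 115 normalized counts where the other OPC libraries had 27.4 to 48.6, apoeb at 6935 where the others had 2015 to 3381, and ccnb3 at 46.2 where the others had 0 to 13.1. The cyclin G gene ccng1 stood at 6625 in OL4 where the other OL libraries had 5179 to 5476, mcm7 at 174 in OL5 where the others had 31.6 to 46.9, and pold1 at 79.99 in OL1 where the others had 16.8 to 22.3. Their causes were not tested.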

How the results depend on the processing

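The number of called proliferation genes, 0 of the 2 that passed the filter, was 3 without a filter and 3 with at least 10 counts in at least 3 libraries (chosen after seeing the data), because these settings test all 6 genes, and was 0 to 3 with each library left out. It was 0 with TMM, library size alone, DESeq2, limma voom and the replicate block, which tested only pcna and ccnb1, and with at least 10 counts in every library, which tested pcna alone. In those 2 genes no setting made a call. The log2 fold change of pcna, -0.04, was 0.25 with library size alone (adjusted p = 0.501), 0.027 with limma voom (adjusted p = 0.95), 0.07 without OPC replicate 1 and 0.12 without OPC replicate 5 (edgeR), and ran from -0.21 to 0.12 with each library left out. That of ccnb1 ran from -2.68 to -1.21 with each library left out. The mean log2 difference of top2a, 2.66, was 1.85 to 3.49 with each library left out in the exact permutation test and passed 0.05 only without OPC replicate 5.

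The number of called features, 1455 of 12292, was 2337 of 25313 without a filter. It was 469 of 9204 with at least 10 counts in every library, which removes features missing from a population. Of 12292 features, library size alone called 1929, DESeq2 1984 and limma voom 2017. With at least 10 counts in at least 3 libraries it was 2154 of 14056, and with a library left out 1282 to 1796. The numbers of list genes below rise and fall beside these totals, and their shares were not compared for every setting. With library size alone 93.9% of called features were higher in OPCs, against 76.2%, and the log2 fold changes of all features had a median of 0.36, against 0.06. The share was 84.3% when no filter was set, 57.6% for features with 10 or more counts in each library and 70.3% for DESeq2. Of the replication genes, 2 were called, and 4 for library size alone, 9 when no filter was set, 0 for 10 or more counts in each library, 5 for 10 or more counts in 3 libraries and 3 to 4 when a library was left out. Of the genes of G2 and mitosis, 2 were called, and in the same order 4, 10, 0, 7 and 2 to 6, with 5 for DESeq2 and 5 for limma voom. Of the G1 genes 1 was called, and 2 when no filter was set, 0 for 10 or more counts in each library, 2 for 10 or more counts in 3 libraries and 1 to 2 when a library was left out. Of the CDK inhibitors and related genes 1 was called, and 4 with library size alone, 2 with DESeq2, 3 with limma voom and 1 to 2 when a library was left out. The cause was not tested beyond the number of features each filter keeps.

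Same-numbered OPC and OL libraries come from different fish lines, so the numbers were not taken as a pairing. Their deviations from the population means correlated at 0.024 to 0.105, and those of different-numbered libraries at -0.102 to 0.073. With the replicate block 1407 features were called, 1236 of them among the 1455, and neither pcna nor ccnb1 was. At 0 to 3 reads a library, the depth cannot show how far mki67, mcm5 and cdk1 differ among OLs.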

Other observations

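OPC5, the library with the fewest reads of mki67, mcm5, top2a and cdk1, was the highest OPC library for some genes of DNA replication. Of the 43 genes of DNA replication and G1/S whose OPC mean reached 10 normalized counts, these were 8. That is 18.6%, beside 29.1% of all features with such a mean. The genes given here were named after their values were seen. The maintenance DNA methyltransferase dnmt1 had 78.8, 226, 82.1, 79.99 and 327 normalized counts in OPC1 to OPC5 and 35.7 to 85.4 in OLs, and was called without the filter but not with it (adjusted p = 0.0472 and 0.0615, edgeR). Its partner uhrf1, which reads hemimethylated DNA, had 7.45, 41.0, 14.6, 35.1 and 110 in OPC1 to OPC5 and 0 to 10.2 in OLs, and was called only without the filter or with the filter of at least 10 counts in at least 3 libraries, of the fits on all 10 libraries (adjusted p = 0.043 and 0.0436, edgeR). The polymerase subunit pold1 was also highest in OPC5, with 142 normalized counts against 24.1 to 73.9 in the other OPC libraries (adjusted p = 0.275, edgeR).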
